A study of Caenorhabditis elegans with 6 samples.

Results

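The 8 C-type lectin genes *clec-60* to *clec-67* of *Caenorhabditis elegans* were taken by name from a table of 20392 genes, in which all 8 were found. They had been chosen with earlier mutant against wild-type results of the same libraries in view, so their mutant against wild-type values are a description. Calls from the fit over the whole table and from its alternatives are counted for them beside the calls over all genes, and nothing is read from those counts. Total RNA came from first-stage (L1) larvae in 3 libraries of the wild-type strain N2 and 3 of strain XA6227, genotype *mrg-1* -/-. Embryos were bleached out of gravid adults, hatched in M9 buffer over 18 h without food and then fed for 2 h and 30 min. The mutant mothers were 2000 to 4000 homozygous adults per library, picked by hand for lacking the balancer, whereas wild-type mothers were washed off plates, so picking and genotype cannot be told apart. *mrg-1* encodes a chromodomain protein of chromatin, related to human MRG15; the larvae and their mothers were homozygous for the mutation.

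C-type lectins are proteins with a fold that in many animals binds sugars, often with the help of calcium. The worm family is large, and many of its members are secreted proteins made in the intestine and switched on by bacteria, which makes them common readouts of the worm's innate defence. *clec-60* is the best known of the 8: it is induced in the intestine by *Staphylococcus aureus*, in a response that needs the β-catenin gene *bar-1*. For the other 7 no role beyond the lectin fold is stated here.

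The libraries held 19238422 to 39063186 counts. The *mrg-1* transcript itself stood at 30.2, 15.9 and 18.8 CPM (counts scaled to library size) in replicates 1, 2 and 3 of the wild type, against 2.11, 5.61 and 5.15 CPM in those of the mutant, 5.05-fold lower on average (adjusted p = 0.0413, edgeR quasi-likelihood test). That call passed only narrowly: with any library but wild-type library 3 left out, the edgeR adjusted p was 0.06 to 0.181. Genes of the mitochondrial genome made up 8.42% to 12.43% of the mutant counts but 10.64%, 23.12% and 45.56% in wild-type libraries 1, 2 and 3. CPM here are scaled by edgeR's TMM factors, which correct for such a difference in composition. Across genes, log2 CPM correlated at 0.860 to 0.888 between wild-type libraries and at 0.928 to 0.940 between mutant libraries. Between the groups the correlations ran from 0.816 to 0.911. Wild-type library 1 was as close to mutant libraries 1, 2 and 3 (0.888, 0.911 and 0.884) as to wild-type libraries 2 and 3 (0.888 and 0.863).

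The 8 genes do not form a single tandem cluster. In the WBcel235 annotation *clec-62* to *clec-66* lie in a row on chromosome II with 0 annotated genes between them: *clec-62* on the minus strand at 12893062 to 12895128, then *clec-63* (12895638 to 12897446), *clec-64* (12898242 to 12900439), *clec-65* (12901325 to 12903336) and *clec-66* (12904398 to 12906644), these last 4 on the plus strand. The gaps measured 509, 795, 885 and 1061 bases, and across the first of them *clec-62* and *clec-63* point away from each other. *clec-60* (10480043 to 10481874) and *clec-61* (10488730 to 10490537) are a separate pair on the minus strand, 2402524 bases from *clec-62*, with 2 protein-coding genes between them. *clec-67* is on chromosome IV, plus strand, 3922165 to 3925039. All 8 are protein-coding, with 4 to 9 exons and annotated exon lengths of 1165 to 2050 bases. *clec-60* overlaps a pseudogene on its own strand that is not in the count table.

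In the wild type, *clec-63* was far above the other 7. It had 9431, 9866 and 4589 counts in wild-type libraries 1, 2 and 3, against 5 to 650 for any other member in any wild-type library apart from *clec-60*, which had 0 in all of them. Levels of different genes were compared per length, as CPM per kilobase of deposited gene length (RPKM). On this scale *clec-63* stood at 249 ± 111 RPKM (SD, n = 3), place 305 among the 20392 genes. It was followed by *clec-65* at 15.6 ± 10.9, *clec-64* at 11 ± 2.81, *clec-62* at 5.24 ± 4.64, *clec-66* at 3.36 ± 0.627 and *clec-67* at 3.20 ± 2.77 RPKM. *clec-63* lay above all of these 5 in every library, and *clec-65* and *clec-64* each lay above *clec-62*, *clec-66* and *clec-67* in every library. Between *clec-65* and *clec-64*, and among *clec-62*, *clec-66* and *clec-67*, the order changed from library to library. *clec-61* was at 0.298 ± 0.198 RPKM, below *clec-67* in all 3 libraries. Among the 240 C-type lectin genes of the table *clec-63* ranked first by RPKM in each of the 6 libraries. It took 16.7% to 25.7% of all lectin counts in wild-type libraries and 20.4% to 27.6% in mutant ones, and the ranges overlap.

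The 6 well-detected genes, *clec-62* to *clec-67*, had no mutant value within the wild-type range, with all mutant libraries higher, and the size of the difference varied between genes from 2.68-fold to 14.3-fold. Of the 8 genes, 7 passed the filter on low counts. The whole-table edgeR test called 5 of the 7 higher, all but *clec-64* and *clec-61*, beside 1.75% of all 13460 tested genes called higher and 0.847% called lower. DESeq2 called 6 of the 7 higher, beside 5.14% of all tested genes called higher and 4.65% lower, and limma on the authors' deposited log2 values 5 of the 7, beside 3.57% and 0.253%. In 6 of the 7 the groups did not overlap with the mutant higher, beside 14.4% of the tested genes (12% with the mutant lower). Without wild-type library 2 or mutant library 1 or 2 edgeR called 1 of the genes, beside 72 of 14230, 35 of 14048 and 64 of 14020 tested genes called higher. Without mutant library 3 it called 2 of them, beside 40 of 13981. These counts rest on the contrast that brought the genes to attention and nothing is read from them. The median log2 fold change of the 7 was 2.40, against -0.03 over all tested genes. Scaled to library totals alone the median of all genes moved to 0.27 and that of the 7 to 2.57, and 2 of the 7 were called higher, beside 1.52% of all tested genes called higher and 0.0817% lower. The deposited log2 values are also scaled to library totals. In limma on them the median was 0.35 over all tested genes and 2.99 for the 7.

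**Figure D1:**
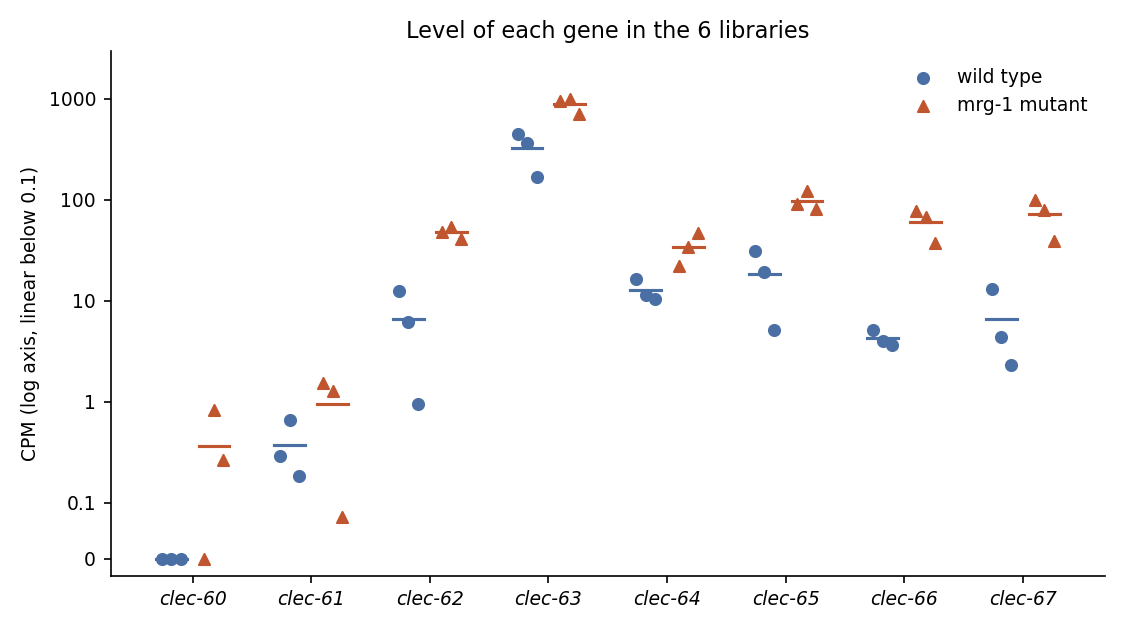
CPM of each of the 8 genes (log axis, linear below 0.1) in the wild-type libraries (circles) and the *mrg-1* mutant libraries (triangles), replicates 1 to 3 from left to right, with bars at the group means. For *clec-62* to *clec-67* all 3 mutant points lie above all 3 wild-type points, and *clec-60* and *clec-61* stay at or below 1.52 CPM.

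*clec-63*, the most abundant, stood at 453, 362 and 168 CPM in replicates 1, 2 and 3 of the wild type, against 964, 1006 and 704 CPM in those of the mutant. All mutant values lay above all wild-type values, the lowest mutant library 1.55-fold above the highest wild-type one. The means were 328 ± 146 and 891 ± 164 CPM (SD, n = 3 each), 2.72-fold apart (log2 fold change 1.44, SE 0.35). Per length the gene moved from place 305 to place 88 of the 20392 genes.

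*clec-66*, at the other end of the row, had the largest fold of the 8 among genes with counts in both groups. Its levels were 5.14, 4 and 3.61 CPM in the wild type and 77.4, 67.8 and 37.3 CPM in the mutant. The wild-type libraries were close together (4.25 ± 0.794 CPM) and the lowest mutant library was 7.26-fold above the highest of them. The mutant mean was 60.8 ± 20.9 CPM (SD, n = 3), 14.3 times that of the wild type (log2 fold change 3.84, SE 0.42).

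*clec-67*, on the other chromosome, stood at 13.1, 4.40 and 2.30 CPM in the wild type and at 100.5, 79.7 and 39.3 CPM in the mutant. The mutant mean of 73.2 ± 31.1 CPM was 11.1-fold above the wild-type mean of 6.59 ± 5.71 CPM (SD, n = 3 each; log2 fold change 3.48, SE 0.61). Wild-type library 1 alone accounted for most of the wild-type mean: the mutant mean was 5.60-fold above that library and 31.8-fold above library 3. With wild-type library 1 left out, its log2 fold change was 4.44.

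*clec-62* showed the widest wild-type spread, with 12.6, 6.23 and 0.949 CPM, a 13.3-fold range. The mutant values, 47.8, 53.8 and 41.0 CPM, were within 1.31-fold of each other. The groups did not overlap, and the mean was 7.19-fold higher in the mutant (6.61 ± 5.85 against 47.5 ± 6.41 CPM, SD, n = 3 each; log2 fold change 2.85, SE 0.68). The size rested on which wild-type library it was set against, from 3.76-fold for library 1 to 50.1-fold for library 3, and leaving out wild-type library 1 brought its log2 fold change to 3.72.

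*clec-65* had 31.2, 19.4 and 5.18 CPM in the wild type and 90.9, 122 and 81.1 CPM in the mutant. The means, 18.6 ± 13 and 98.2 ± 21.6 CPM (SD, n = 3 each), differed 5.28-fold (log2 fold change 2.40, SE 0.53). The lowest mutant library was 2.60-fold above the highest wild-type one. With wild-type library 1 left out, its log2 fold change was 2.99.

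*clec-64* had the smallest fold of the 6, at 16.5, 11.4 and 10.4 CPM in the wild type and 22.1, 33.9 and 46.6 CPM in the mutant. The groups did not overlap, but the lowest mutant value was only 1.34-fold above the highest wild-type one. The mean was 2.68-fold higher in the mutant (12.8 ± 3.26 against 34.2 ± 12.2 CPM, SD, n = 3 each; log2 fold change 1.424, SE 0.42). Among the mutant libraries *clec-64* ran against the others: library 3 was its highest, whereas that library was the lowest for the other 5 of the 6 genes.

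The pair *clec-60* and *clec-61* was near silent. *clec-60* had 0 counts in all wild-type libraries and 0, 20 and 7 counts in mutant libraries 1, 2 and 3. Against the floor of 3 counts over the wild-type group (0.0397 CPM), its 27 mutant counts stand 8.88-fold higher, a point value without counting error. The exact 95% counting interval of the mutant to wild-type ratio starts at 6.74. That interval covers counting error only, not the spread between mutant libraries, 1 of which had 0 counts and another 20 of the 27. The groups overlapped at 0, and the gene was left out of the test by the filter. *clec-61* had 6, 18 and 5 counts in wild-type libraries against 39, 31 and 2 in mutant ones, or 0.377 ± 0.251 against 0.958 ± 0.774 CPM (SD, n = 3 each; log2 fold change 1.33, SE 1.25). The mutant libraries of *clec-61* spanned a 20.3-fold range that covered the wild-type one, so no difference between the groups can be read from it at this depth.

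In the mutant the order per length was *clec-63* at 678 ± 125, *clec-65* at 82.2 ± 18.1, *clec-66* at 48.0 ± 16.5, *clec-62* at 37.7 ± 5.08, *clec-67* at 35.5 ± 15.1 and *clec-64* at 29.5 ± 10.6 RPKM (SD, n = 3 each). *clec-63* lay above *clec-65*, and *clec-65* above *clec-66*, with no overlap. From *clec-66* down to *clec-64* each gene's range overlapped that of the next. *clec-64* went from the third place in the wild type to the sixth, and *clec-66* from the fifth to the third.

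Ratios within a library do not depend on how libraries are scaled, and they differed between genes of the row. The RPKM of *clec-66* was 1.18%, 1.15% and 2.24% of that of *clec-63* in the wild-type libraries and 8.33%, 7% and 5.51% in the mutant ones. As a log2 ratio this is -6.11 ± 0.55 for wild type against -3.87 ± 0.30 for mutant (SD, n = 3 each), a difference of 2.24. *clec-62* went from 0.591% to 2.91% of *clec-63* in the wild type to 5.17% to 6.08% in the mutant, and *clec-65* from 3.41% to 7.58% to 10.4% to 13.4%. In these 3 genes the groups did not overlap. *clec-64* was at 4.13%, 3.58% and 7.05% of *clec-63* in the wild type and at 2.61%, 3.83% and 7.51% in the mutant, and the groups overlapped. *clec-63* and *clec-64*, which are next to each other, thus had log2 fold changes of 1.44 and 1.424, while those of the flanking *clec-62*, *clec-65* and *clec-66* were 2.40 to 3.84. *clec-63* made up 86.4% to 89.0% of the summed RPKM of the row in the wild type and 75.9% to 79.1% in the mutant.

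**Figure D2:**
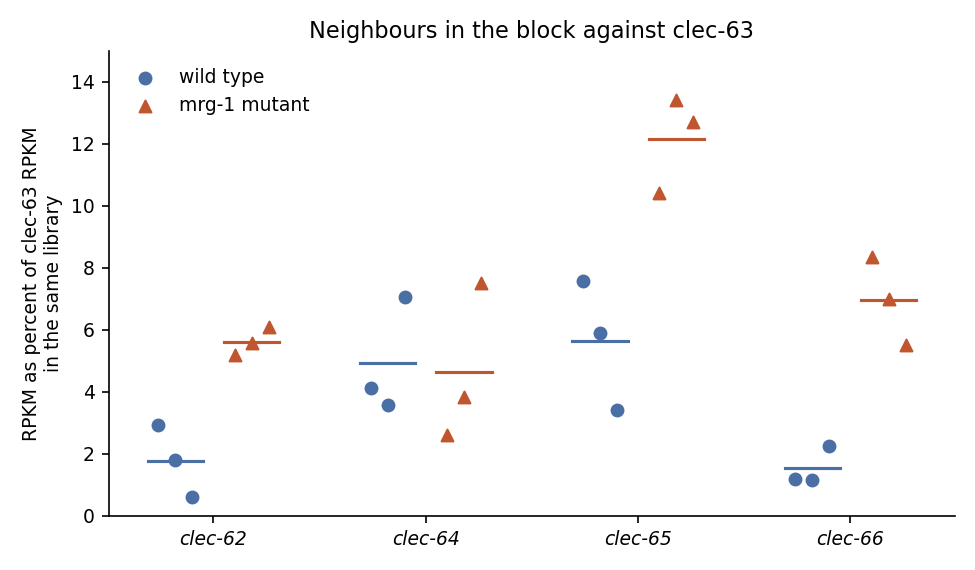
RPKM of *clec-62*, *clec-64*, *clec-65* and *clec-66* as a percentage of the RPKM of *clec-63* in the same library, for wild type (circles) and *mrg-1* mutant (triangles), with bars at the group means. The groups are apart for *clec-62*, *clec-65* and *clec-66* and overlap for *clec-64*, which runs from 2.61% to 7.51% in the mutant.

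The wild-type libraries were ordered alike by all 6 well-detected genes: library 1 was the highest and library 3 the lowest for 6 of 6. Summed markers of the intestine, of body wall muscle (8359, 4353 and 3884 CPM) and of the pharynx (3020, 1303 and 916 CPM) followed the same order. Those of the epidermis (332, 377 and 507 CPM) and of neurons (1736, 1886 and 2199 CPM) ran the opposite way. Germ line markers (58.4, 26.7 and 41.5 CPM) followed neither order. The 12 intestine marker genes, all detected, summed to 5791, 3995 and 2044 CPM in wild-type libraries 1, 2 and 3 and to 4871, 5224 and 3614 CPM in the mutant libraries, and the groups overlapped. In bulk larvae fewer cells of a type and less RNA per cell cannot be told apart. Per 1000 CPM of these markers, *clec-63* stood at 78.2, 90.6 and 81.9 CPM in the wild type and at 198, 193 and 195 CPM in the mutant. The wild-type spread of *clec-63*, 2.71-fold in CPM, was thus narrow against the markers, and the mutant mean was 2.33-fold higher on this scale (83.6 ± 6.32 against 195 ± 2.76, SD, n = 3 each). The protease gene *asp-1* supplied 31.6% to 44.8% of the marker sum. Without it the values were 120 to 152 for wild type and 311 to 349 for mutant libraries. On the same scale *clec-66* was 10.7-fold, *clec-67* 10.4-fold, *clec-62* 7.48-fold and *clec-65* 5.05-fold higher in the mutant with no overlap, and *clec-64* 2.22-fold higher with overlap.

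**Figure D3:**
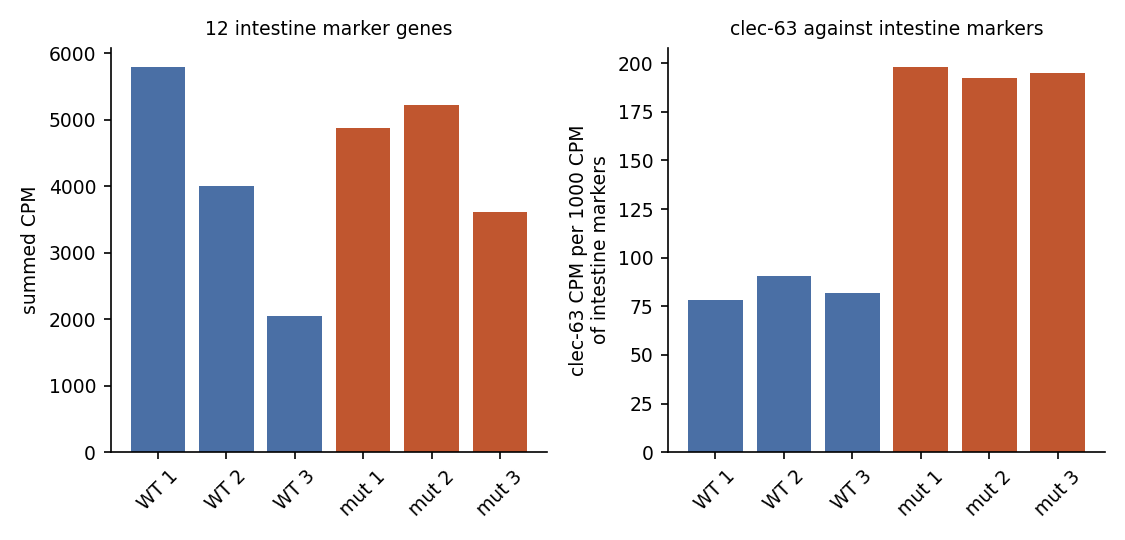
Left, summed CPM of the 12 intestine marker genes in each library; right, CPM of *clec-63* per 1000 CPM of these markers (WT, wild type in blue; mut, *mrg-1* mutant in orange; linear axes from 0). The marker sums overlap between the groups, and the ratio is 78.2 to 90.6 in the wild type and 193 to 198 in the mutant.

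Of the 12 intestine markers 1 changed, beside 0.847% of all tested genes called lower: the acid phosphatase gene *pho-1* fell from 472 to 176 CPM (log2 fold change -1.43, SE 0.27, adjusted p = 0.0201, edgeR quasi-likelihood test). None of the 12 was called higher in edgeR, where 1 had an unadjusted p under 0.05 and DESeq2 and limma called 0. The median log2 fold change of the markers was 0.29. The intestinal GATA factor *elt-2*, a general activator of intestine genes, was at 13.3, 3.01 and 2.15 CPM in the wild type and at 12.3, 16.3 and 14.9 CPM in the mutant, and the groups overlapped. The *pho-1* call was lost under library totals, in limma, without wild-type library 2 and without each of the mutant libraries. Without wild-type library 1 the list had 5 calls, 4 of them higher, beside 559 of 14244 tested genes called higher and 484 lower. Sums over markers of other tissues differed as well: body wall muscle (5 genes) stood at 3884 to 8359 CPM in the wild type and 9538 to 11280 CPM in the mutant, and epidermis (6 genes) at 332 to 507 and 264 to 282 CPM. The sums for pharynx (4 genes), neurons (5) and germ line (4) overlapped between the groups, at 916 to 3020 and 2487 to 3143, 1736 to 2199 and 2152 to 2892, and 26.7 to 58.4 and 23.2 to 35.9 CPM. No marker gene had 0 counts in all libraries. The part of these shifts in the lectin values was not tested.

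Around the members, 46 other genes of the table lie within 20 kb of a member, and 17 of them were detected well enough to be tested. In edgeR 2 of the 17 rose, beside 1.75% of all tested genes, and both were C-type lectins beside *clec-67*. DESeq2 called 5 of the 17 higher and 1 lower, and limma 3 higher. *clec-72* went from 25.7 to 138 CPM (log2 fold change 2.42, SE 0.39, adjusted p = 0.013) and *clec-174* from 4 counts in wild-type library 1 alone to 15.5 CPM (7.98, SE 1.11, adjusted p = 0.00528; edgeR quasi-likelihood test). Without mutant library 1 or 2 *clec-72* was no longer called, and with wild-type library 1 left out *clec-174* had 0 wild-type counts, so no fold is given. The other tested lectins near a member were *clec-68*, *clec-70*, *clec-71* and *clec-143*, with log2 fold changes of 1.33 to 2.22 that did not pass the edgeR test, although DESeq2 called *clec-70* and *clec-71* higher and limma *clec-71*. The 11 tested neighbours that are no lectins had a median log2 fold change of 0.19, with 0 called in edgeR and in limma (1 higher and 1 lower at an unadjusted edgeR p under 0.05, and 1 higher and 1 lower in DESeq2).

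Around the row *clec-62* to *clec-66* none of the 5 tested neighbours was called by edgeR, DESeq2 or limma, and 0 had an unadjusted edgeR p under 0.05. Their log2 fold changes ran from -0.39 to 1.2, against 1.424 to 3.84 in the row itself, which was chosen with its values known. The highest, *F58G1.2* (1.2, SE 0.61), lies within its SE of *clec-64* (1.424, SE 0.42). It stood at 13.1, 4.40 and 2.48 CPM in the wild type and 17.3, 14.2 and 14.5 CPM in the mutant, without overlap. On the left the nearest tested gene was *gsy-1*, of glycogen synthesis, at 118.8 and 164.0 CPM in wild type and mutant. On the right it was *ddn-2*, at 8.17 and 9.31 CPM. Genes closer to the row on the left, such as the chemoreceptor gene *sra-14*, had too few counts to test. Around *clec-60* and *clec-61* the 6 tested neighbours ran from -1.05 to 1.98 with 0 called in edgeR, while DESeq2 called 1 lower and limma 0. In edgeR 1 had an unadjusted p under 0.05, *myrf-1* (log2 fold change -1.05, SE 0.28). *myrf-1* stood at 344, 287 and 515 CPM in the wild type and 188, 173 and 192 CPM in the mutant, without overlap. *clec-58* and *clec-59*, the lectin genes next to *clec-60*, had at most 0.507 CPM. Around *clec-67* all 6 tested neighbours had positive log2 fold changes, 1.33 to 7.98, of which edgeR called 2, DESeq2 5 and limma 3. The only one of these that is no lectin was *srz-19*, a chemoreceptor-class gene 552 bases from *clec-67*, at 0.192, 0.0367 and 0 CPM in the wild type and 0.546, 3.59 and 0.977 CPM in the mutant. Its log2 fold change of 4.46 did not pass the edgeR test (DESeq2 called it). *srz-19* (5 wild-type and 127 mutant counts) and *clec-174* (4 and 1180) passed the low-count filter only through the mutant libraries. *clec-68*, at 0 CPM in wild-type library 1, also needed mutant libraries to pass. For such genes a positive sign was favoured in advance, so the 6 positive values are a description. The difference between these surroundings was not tested.

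**Figure D4:**
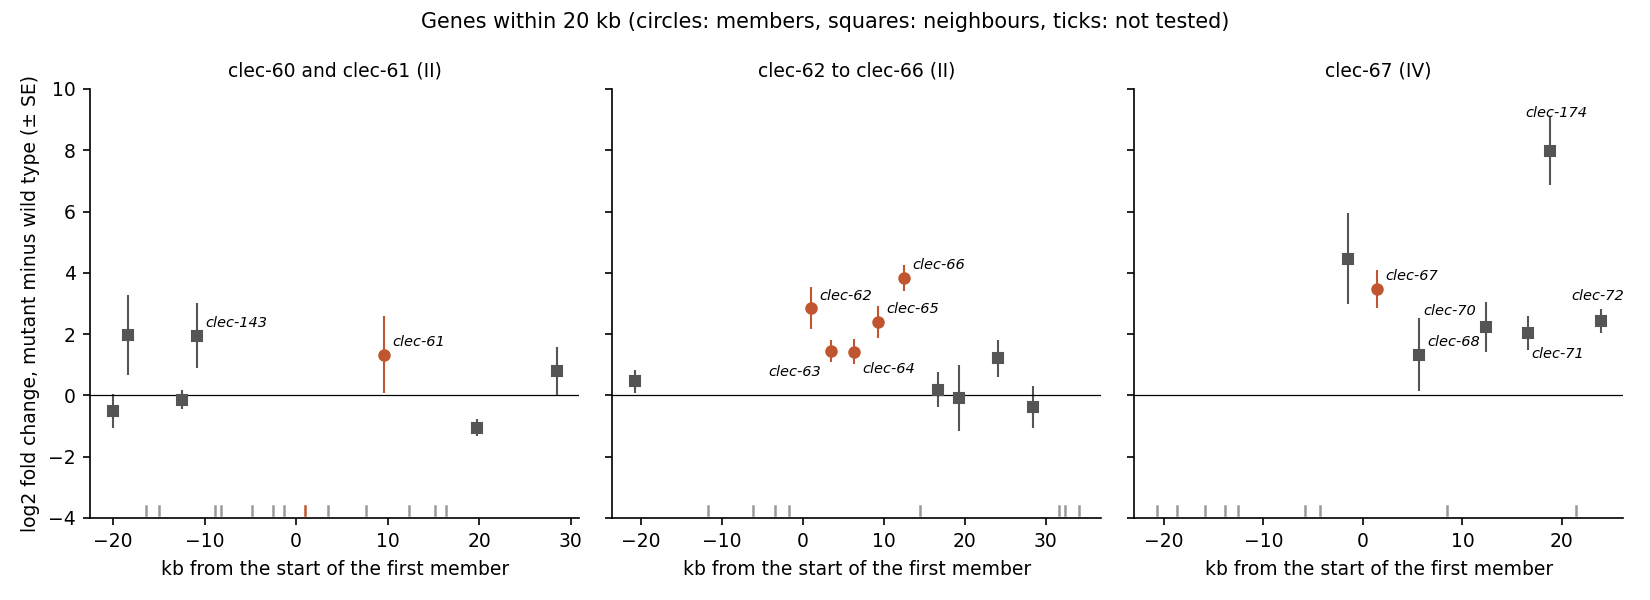
Log2 fold change, mutant minus wild type, with its SE, for members (circles) and tested neighbours within 20 kb (squares), by the distance of the gene's middle from the start of the first member of the locus; ticks at the bottom are genes not tested (orange for *clec-60*). The 5 genes of the row stand at 1.424 to 3.84 between neighbours at -0.39 to 1.2, and *clec-67* lies beside further lectin genes with positive values.

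In the rest of the lectin family, 232 gene identifiers with 229 names, 93 were tested and 13 rose, beside 1.75% of all tested genes. None fell in edgeR (8 had an unadjusted p under 0.05 on that side, DESeq2 called 4 and limma 0). The median log2 fold change of the 93 was 0.37, with 57 positive and 36 negative values. Among the called genes *clec-74*, *clec-174* and *clec-3* (6 wild-type and 257 mutant counts) passed the low-count filter only through the mutant libraries. So did the uncalled *clec-40* (5 and 127) and *clec-125* (5 and 80), and for such genes a positive sign was favoured in advance. On the lower side, genes such as *clec-27* (200 and 19) needed wild-type libraries to pass. The calls and signs are thus a description. The 4 with the smallest adjusted p were *clec-74*, with 3 counts over all wild-type libraries and 1448 over all mutant ones, *clec-17* (22.1 to 236 CPM), *clec-174* and *clec-41* (167 to 930 CPM), with edgeR adjusted p values of 0.000273 to 0.0119. *clec-41* was the second lectin per length in the mutant, at 470 ± 134 RPKM, after *clec-63*. *clec-41* was not called without mutant library 1 or 3. The family count was 3 without mutant library 1, beside 35 of 14048 tested genes called higher, and 4 without mutant library 2 (64 of 14020). It was 7 without mutant library 3 (40 of 13981) and 6 without wild-type library 2 (72 of 14230). The folds of *clec-62* to *clec-67* lay inside the range of the other tested lectins, -3.32 to 8.71. The upper end of that range was set by *clec-74* (8.71) and *clec-174* (7.98), both near 0 in the wild type.

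**Figure D5:**
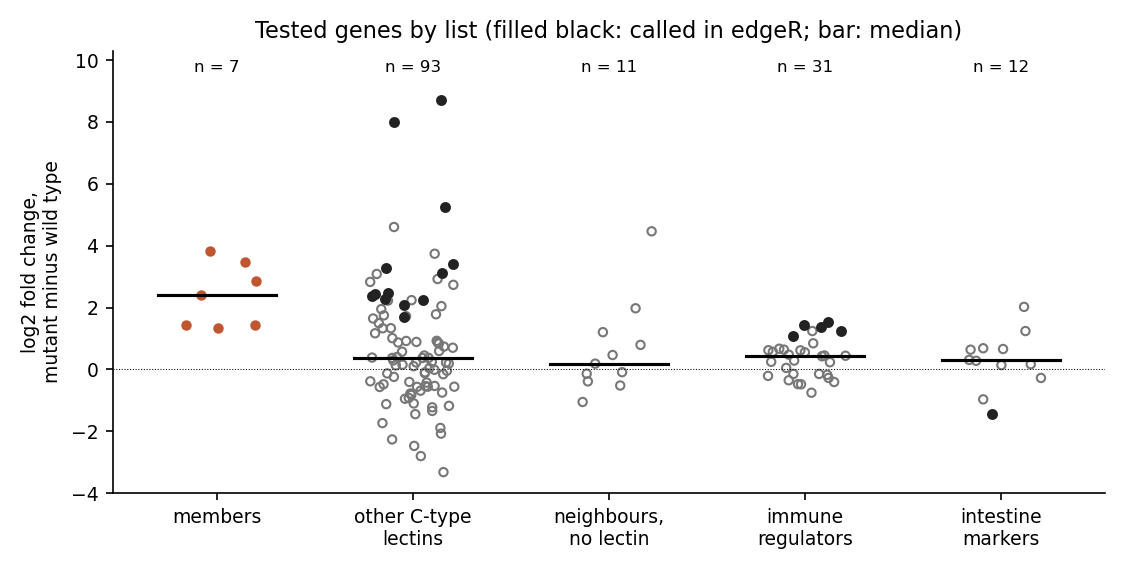
Log2 fold change, mutant minus wild type, of each tested gene in 5 lists, with a bar at the list's median; black points passed the edgeR test at an adjusted p of 0.05, and no call is drawn for the members. The 7 members lie between 1.33 and 3.84, the 93 other lectins between -3.32 and 8.71, and the medians of the remaining lists are 0.19 to 0.44.

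Known regulators of defence genes, in the intestine and, as for *sta-2* and *elt-3*, the epidermis, were taken as a list of 31, all of them tested, and 5 rose while 0 fell, beside 1.75% and 0.847% of all tested genes (on the lower side 0 had an unadjusted p under 0.05, and DESeq2 and limma also called 0). The bZIP factor *zip-2*, which drives infection response genes, rose from 886, 857 and 761 CPM in the wild-type libraries to 2582, 1871 and 2247 CPM in the mutant ones (log2 fold change 1.4, SE 0.25, adjusted p = 0.0164, edgeR quasi-likelihood test). *sta-2*, of the STAT family, rose from 87.7 to 209 CPM, the bZIP factor *cebp-1* from 53.3 to 153 CPM, the p38 pathway adaptor *tir-1* from 172 to 447 CPM and *hlh-30*, the worm TFEB, from 340 to 712 CPM, with edgeR adjusted p values of 0.0337 to 0.0445. Library totals gave 3 calls in this list, beside 1.52% of all tested genes called higher. With a library left out there were 7 without wild-type library 1, beside 559 of 14244 tested genes called higher. There were 4 without wild-type library 3 (279 of 14241) and 2 without mutant library 2 (64 of 14020). There were 0 without wild-type library 2 (72 of 14230), mutant library 1 (35 of 14048) or mutant library 3 (40 of 13981). The median of the list was 0.44.

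Downstream of *tir-1*, the p38 kinase cascade did not pass the test. The kinase genes *nsy-1*, *sek-1* and *pmk-1* had log2 fold changes of 0.48, -0.28 and -0.35, and the p38 target factor *atf-7* had -0.21. *bar-1*, the β-catenin needed for *clec-60* induction, stood at 25.8, 22.1 and 21.3 CPM in the wild type and at 36.5, 21.5 and 49.8 CPM in the mutant, with overlap. *egl-5*, a Hox gene of the same response, was at 1.25 to 9.89 CPM in the wild type and 1.64 to 4.92 CPM in the mutant, also with overlap.

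*clec-63*, *clec-65* and *clec-67*, the 3 members with the highest mean CPM, were compared with all other tested genes of at least 5 CPM on average over the 6 libraries, 8870 genes, by Pearson's r of log2 CPM over the 6 libraries. As the libraries fall into 2 groups, r mostly follows the group difference, and with 6 points high values are frequent among so many genes, so the names are a description. Closest to *clec-63* were the glucuronosyltransferase gene *ugt-50* (r = 0.9997), *C49C3.4* and the myosin gene *hum-7* (both 0.997). *ugt-50* ran at 27.4, 23.9 and 14 CPM in the wild type and at 47.7, 49.6 and 37.7 CPM in the mutant. Closest to *clec-65* were the autophagy gene *atg-9* (0.9969), *F59B1.8* (0.9938) and *pes-4* (0.993), and closest to *clec-67* were *T19D12.4* (0.9973), *Y105C5A.8* (0.9965) and *F35A5.1* (0.9921). *T19D12.4* went from 382, 224 and 172 CPM to 1198, 1149 and 810 CPM. *F59B1.8* reached the minimum through the mutant libraries, at 2.93, 1.32 and 0.0365 CPM in those of the wild type. The 9 names do not repeat between the 3 members.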

How the data were processed

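The authors deposited raw counts for 20392 genes with a length per gene, and normalized log2 values. Checked against the counts, the deposited log2 values equal log2 of the counts scaled to 24838462 per library plus 8. Per the submitters' processing notes the build is ce10. How reads were aligned and counted, on which strand, and what became of reads matching several genes is not given in the sources used here, so similar lectins may share reads. Positions come from the Ensembl WBcel235 annotation, looked up by identifier and not converted. There were 0 unmapped columns.

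Counts of 13460 genes passing the default filter of edgeR 4.0.16 were fitted under R 4.3.3 (TMM scaling, quasi-likelihood F test on group alone, Benjamini-Hochberg 0.05). The SE of a log2 fold change is its size over the square root of F. Alternatives were DESeq2 1.42.0, library totals, other filters, a replicate block, mitochondrial genes left out, limma 3.58.1 on the authors' deposited log2 values, and each library left out. The fit was tested on simulated data. Figures used matplotlib 3.10.9.

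The members, the gene lists, the 20 kb window and the likeness rule (the 3 closest genes to each of the 3 members with the highest mean CPM) were chosen with earlier results of these data known. Named are the members, some of their neighbours, up to 4 called genes per list with the smallest adjusted p, some genes behind a count of 5 or fewer, and genes given as examples of a limit. The 8 lectins among the 46 neighbours are also among the other lectins, *elt-2* and *elt-3* are both regulators and tissue markers, and *tnc-2* is both a neighbour and a pharynx marker. The design text calls the libraries biological replicas. The floor is 3 counts per group.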

Additional observations from a re-analysis of the deposited data

How the results depend on the processing

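The direction of each tested member was the same in every alternative run. For *clec-62* to *clec-67*, whose groups do not overlap, this was to be foreseen when a library is left out, so nothing is read from it. The log2 fold changes ran from 2.36 to 3.72 for *clec-62*, 1.15 to 1.86 for *clec-63*, 1.14 to 1.69 for *clec-64*, 1.98 to 2.99 for *clec-65*, 3.64 to 4.10 for *clec-66*, 3.09 to 4.44 for *clec-67* and 0.801 to 2.00 for *clec-61*. Calls moved more than folds, and the cause was not tested. The count over all genes was 350 (236 higher, 114 lower), 1318 in DESeq2 (692 and 626), 215 under library totals (204 and 11), 734 without a filter and 514 in limma on the authors' values (480 and 34), and 35 to 1043 with a library left out. For members it was 5 of 7, 2 under library totals and 1 to 6 with a library left out. The 6 came without wild-type library 1, beside 559 of 14244 tested genes called higher. It was 1 without wild-type library 2 (beside 72 of 14230), mutant library 1 (35 of 14048) or mutant library 2 (64 of 14020). Without mutant library 3 it was 2 (40 of 13981). For neighbours it was 2, 6 in DESeq2, 4 without a filter and 1 to 4 with a library left out. For other lectins it was 13, 20 in DESeq2 and 3 to 16 with a library left out. For regulators it was 5, 3 under library totals and 0 to 7 with a library left out. For intestine markers it was 1, 0 under library totals and in limma, and 0 to 5 with a library left out.

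With the replicate number as a block, edgeR called 431 of 13460 tested genes (290 higher), 5 of the 7 members and 3 of the 17 neighbours. Libraries of the same number deviated from their group means with correlations of -0.00482, 0.0433 and 0.093. Across different numbers the correlations ran from -0.0813 to 0.0461. With 3 libraries per group these values cannot settle whether the numbers pair the libraries. Lengths from the annotated exons, chosen after seeing the data in place of the coding lengths, which were not run, moved no RPKM of a member by more than its SD. The 19238422 to 39063186 counts leave *clec-60* and *clec-61* too low to compare.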
